A study of Mus musculus with 18 samples.

Results

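MHC class I molecules display short peptides from inside a cell to CD8+ T cells. The 10 genes described here carry the main steps of that route and were chosen by name: the heavy chains H2-K1 and H2-D1, the light chain B2m, the peptide transporter subunits Tap1 and Tap2, the loading factor Tapbp, the immunoproteasome subunits Psmb8, Psmb9 and Psmb10, and the transactivator Nlrc5. All 10 are listed among the 21899 genes of the data. Expression was measured in liver, epididymal white adipose tissue (eWAT) and quadriceps muscle of male wild type C57BL/6 mice aged 18 weeks. The HSD group had eaten food with 8% NaCl and drunk 0.9% saline for 12 weeks, and the CON group had received chow and tap water. Each tissue had 3 CON and 3 HSD libraries, 18 in all. By the numbers in the library names they came from 8 mice, several of which gave more than 1 tissue. Whole tissue was extracted, so fewer cells of a type and less RNA per cell cannot be told apart in any value below.

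Class I molecules are made in nearly every nucleated cell, and interferons raise their level. The proteasome cuts proteins into peptides, TAP carries the peptides into the endoplasmic reticulum, and tapasin, the product of Tapbp, holds an empty heavy chain and B2m next to TAP until a peptide is bound. Under interferon the catalytic subunits Psmb5, Psmb6 and Psmb7 are replaced in new proteasomes by Psmb8, Psmb9 and Psmb10. NLRC5 acts in the nucleus on the promoters of class I genes, where it joins a complex that holds RFX5 and sits on conserved X and Y elements.

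In mouse build mm10, 7 members lie within the MHC of chromosome 17: Tapbp (chr17:33915899-33929292), H2-K1 (chr17:33996017-34000347), Psmb9 (chr17:34181987-34187764), Tap1 (chr17:34187553-34197225), Psmb8 (chr17:34197721-34201454), Tap2 (chr17:34203527-34216321) and H2-D1 (chr17:35262730-35267499). B2m lies at chr2:122147686-122153083, Nlrc5 at chr8:94434356-94527272 and Psmb10 at chr8:105935735-105938444. Psmb9 and Tap1 are transcribed away from each other and overlap at their 5′ ends. B2m, Tap2, Psmb8, Tapbp, Psmb10 and Nlrc5 also overlap an annotated gene, and H2-K1 and H2-D1 have close paralogs. Some fragments of these members could therefore have been left out or given to another gene by the counting.

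The bases before the start site are shown for 4 members because H2-K1, H2-D1 and B2m, the 3 members of highest level in each tissue, share a pair of elements there, and Psmb9 is the member whose groups stood furthest apart in liver. The sequences are from RefSeq on build GRCm38.p6, which holds the promoters of 8 of the 10 members, and each shows the 250 bases up to the start site, 5′ to 3′ on the gene's strand, from chr17:34000348-34000597 (minus strand) for H2-K1, chr17:35262844-35263093 (plus) for H2-D1, chr2:122147437-122147686 (plus) for B2m and chr17:34187331-34187580 (minus) for Psmb9. Capitals mark the motifs TGACG (the core of the X2 element), ATTGG (the Y box), GGGATTCCC (a kappaB site) and the IRF-type motifs GAAANNGAAA and GAANNGAAA, each on either strand. The RefSeq start sites of H2-D1 and Psmb9 lie 364 and 434 bases inside the longest annotated gene body, and the motifs were chosen after the sequences were seen.
H2-K1: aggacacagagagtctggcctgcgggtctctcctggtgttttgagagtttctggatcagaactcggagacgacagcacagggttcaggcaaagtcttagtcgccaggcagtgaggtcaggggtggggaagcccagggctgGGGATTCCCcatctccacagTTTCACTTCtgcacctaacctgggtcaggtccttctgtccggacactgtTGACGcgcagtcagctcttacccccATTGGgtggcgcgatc
H2-D1: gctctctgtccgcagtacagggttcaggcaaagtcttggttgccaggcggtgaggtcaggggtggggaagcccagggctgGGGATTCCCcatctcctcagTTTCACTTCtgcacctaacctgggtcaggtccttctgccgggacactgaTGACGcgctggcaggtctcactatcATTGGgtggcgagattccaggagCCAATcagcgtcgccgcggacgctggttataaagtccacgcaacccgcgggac
B2m: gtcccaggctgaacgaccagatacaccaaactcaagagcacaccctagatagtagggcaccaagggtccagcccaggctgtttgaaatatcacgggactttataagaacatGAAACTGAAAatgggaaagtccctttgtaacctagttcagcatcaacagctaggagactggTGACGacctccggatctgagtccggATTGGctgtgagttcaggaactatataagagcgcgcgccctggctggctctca
Psmb9: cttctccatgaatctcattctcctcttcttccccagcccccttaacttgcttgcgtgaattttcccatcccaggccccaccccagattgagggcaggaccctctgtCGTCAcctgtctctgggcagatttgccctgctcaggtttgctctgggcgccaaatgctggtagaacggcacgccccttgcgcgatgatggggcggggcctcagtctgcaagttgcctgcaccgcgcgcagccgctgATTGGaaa

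In H2-K1, H2-D1 and B2m the X2 core was followed, after exactly 20 bases, by the Y box on the same strand. This pair with this spacing was found in 30 of 32851 promoters (0.0913%), against 17.8% for the X2 core and 33.8% for the Y box taken alone. The pair spanned positions -41 to -12 from the start site in H2-K1, -101 to -72 in H2-D1 and -78 to -49 in B2m. H2-K1 and H2-D1 also held the kappaB site (0.301% of promoters) and GAANNGAAA (6.31%), read as its complement on the printed strand, and B2m held GAAANNGAAA (2.98%). None of these matches overlapped each other. In the Psmb9 window the X2 core (minus strand) and the Y box were present without that spacing.

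The tissues carried their defining markers. The sum of 10 hepatocyte markers was 17273 to 89526 FPKM in liver, that of 8 adipocyte markers 7136 to 23307 in eWAT and that of 9 skeletal muscle markers 55105 to 69290 in muscle. Some libraries stood apart. The liver library CON16L held skeletal muscle transcripts, with Acta1 at 1994 FPKM against at most 1.37 in the other liver libraries. The eWAT library HS3W held transcripts of epididymal epithelium, with Crisp1 at 5109 FPKM against at most 0.979 in the other eWAT libraries, and its level of the adipocyte gene Adipoq was 692 FPKM against 1937 to 2129. The 3 CON eWAT libraries had Alb, a hepatocyte gene, at 53.9 to 167 FPKM and the 3 HSD libraries at 3.30 to 7.85. Mitochondrially encoded genes took 15.4% to 60.8% of the fragments in liver, with CON14L highest, and at most 16.5% in the other tissues. CON16L, HS5L and HS5W are not among the 15 libraries of the study's own figures. Library totals, recovered from the values, ran from 7628071 to 16637489 fragments, and the members had between 9 fragments (Psmb8, muscle) and 39582 (B2m, liver) in a library.

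In the CON mice all 10 members had their lowest mean level in muscle, and B2m was the only member with a higher mean in liver than in eWAT. Levels are FPKM, fragments scaled by the length of the gene and the library total. The length is that of all annotated exons, so comparisons between genes depend on the annotation. It is 3660 bases for Psmb9, 3381 for Psmb8 and 1705 for Psmb10. H2-K1 was 346, 380 and 393 FPKM in the 3 CON eWAT libraries, 207, 350 and 366 in liver and 29.2, 35.1 and 51.4 in muscle. Liver and eWAT overlapped, and muscle lay below both. H2-D1 was 631, 672 and 673 FPKM in eWAT, 63.2, 149 and 158 in liver and 43.4, 46.8 and 65.2 in muscle. For this heavy chain eWAT stood clear of the other tissues, and the lowest liver library was inside the range of muscle. B2m, which pairs with every class I heavy chain, was 2975, 3958 and 4902 FPKM in liver, 1886, 2041 and 2211 in eWAT, and in muscle 121, 140 and 191. By CON mean it ranked 14 from the top of 21899 genes in eWAT, 17 in liver and 168 in muscle.

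The loading genes were far less abundant than the chains they serve. Tapbp had a CON mean of 58.4 ± 2.23 FPKM in eWAT, 10.2 ± 3.03 in liver and 7.90 ± 1.04 in muscle (SD, n = 3 for these and the means that follow). Tap1 was 10.9 ± 2.29, 2.88 ± 0.617 and 1.69 ± 0.769 in the same order, and Tap2 was 10.9 ± 1.24, 2.74 ± 0.485 and 1.48 ± 0.210. For all 3 of these genes liver and muscle were nearer to each other in FPKM than either was to eWAT. This grouping depended on scaling. With the median-ratio scaling described below, the log2 difference of eWAT minus liver was smaller than that of liver minus muscle. The values were 0.23 and 1.24 for Tap1, 0.31 and 1.28 for Tap2 and 0.88 and 0.93 for Tapbp. Among the immunoproteasome subunits Psmb10 had the highest FPKM in each tissue, at 26.1 ± 1.79 in eWAT, 18.3 ± 3.59 in liver and 5.90 ± 0.534 in muscle. Psmb9 was 8.34 ± 1.56, 2.57 ± 0.794 and 1.12 ± 0.586, and Psmb8 was 4.20 ± 0.310, 3.01 ± 0.858 and 0.546 ± 0.295. Nlrc5 was 6.95 ± 1.40 in eWAT, 4.47 ± 2.60 in liver and 0.781 ± 0.192 in muscle.

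**Figure D1:**
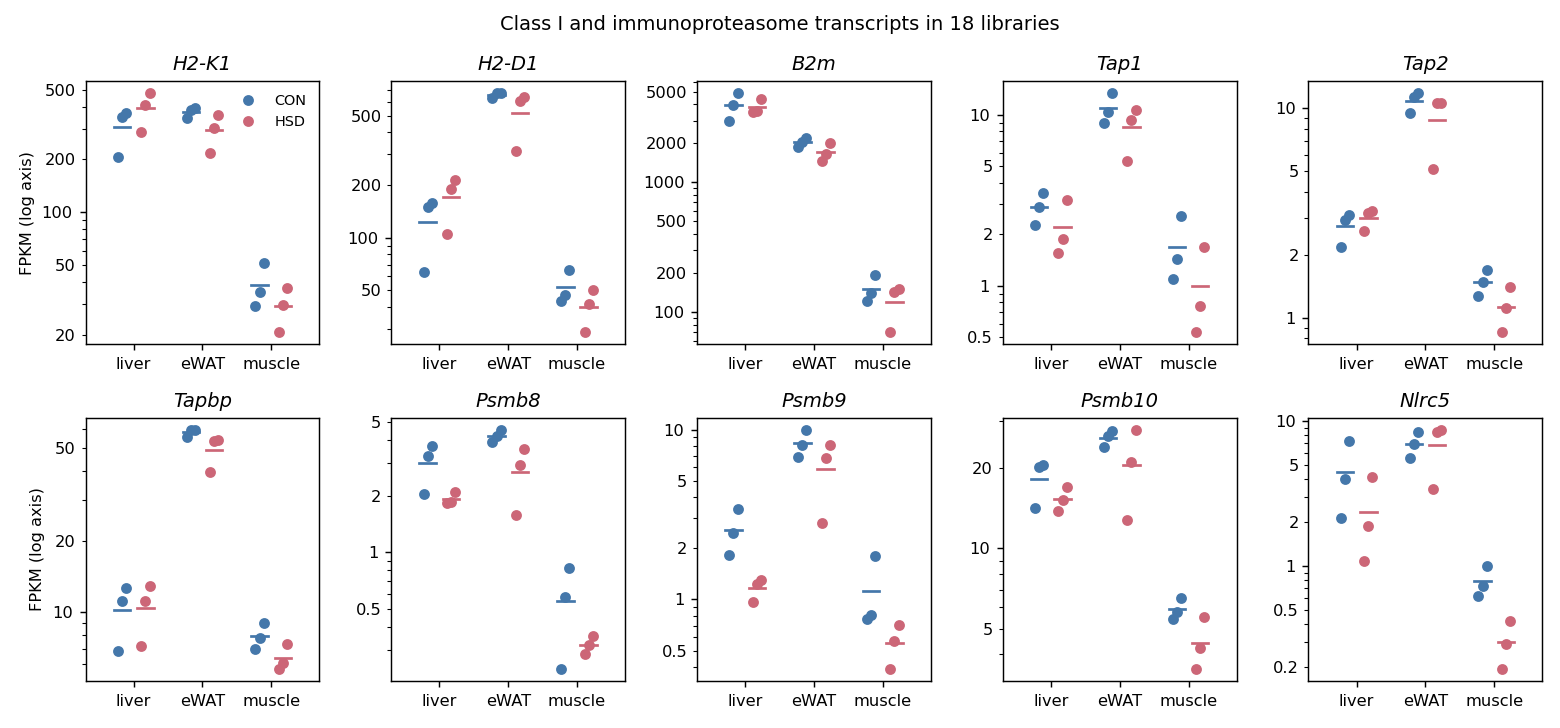
Level of each of the 10 members in FPKM (log axis) in the 18 libraries by tissue, with CON in blue and HSD in red; points are libraries and short lines are group means (n = 3). Muscle had the lowest CON mean for all 10 members. Each HSD library lay below each CON library for Psmb9 in liver, Tapbp and Psmb8 in eWAT, and Psmb9 and Nlrc5 in muscle. Of all genes 3.47% in liver, 12.4% in eWAT and 15.6% in muscle did so. The lowest red point in eWAT is HS3W for 9 of 10 members.

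Tissues were compared by limma over the 9 CON libraries on log2(FPKM + 0.5), and a gene was called where the p adjusted by Benjamini-Hochberg was under 0.05 and the log2 difference was 1 or more in size. All 10 members were called higher in eWAT than in muscle, by 2.05 (Psmb10, adjusted p = 9.4e-06) to 3.78 (B2m, adjusted p = 3.7e-05), where 46.9% of the 12637 genes tested were called higher. In liver against muscle 6 of 10 were called higher, where 15% of genes were: B2m by 4.70, H2-K1 by 2.97, Nlrc5 by 1.83, Psmb8 by 1.76, Psmb10 by 1.54 and H2-D1 by 1.16. Psmb9, Tap2 and Tap1 passed the adjusted p there with differences of 0.95, 0.70 and 0.66, under the size required, and Tapbp differed by 0.32 (adjusted p = 0.24, 95% interval -0.20 to 0.83).

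In eWAT against liver 5 of 10 members were called higher, where 62.1% of genes were, so the members held no larger share than the genes at large. They were H2-D1 by 2.52, Tapbp by 2.50, Tap2 by 1.82, Tap1 by 1.75 and Psmb9 by 1.54. This order of the 2 tissues depended on scaling. The median difference of all genes between eWAT and liver was 1.36, and with median-ratio scaling, which brought it to -0.03, none of the 10 members was called higher, where 20.6% of genes were, and 3 were called lower, where 21.2% of genes were: B2m by -2.58, H2-K1 by -1.34 and Psmb10 by -1.11. Against muscle the same scaling moved the median of all genes from 0.93 to 0.07 for eWAT and from -0.52 to -0.08 for liver. It left 10 of 10 members called higher in eWAT, where 19.6% of genes were, and 9 of 10 in liver, where 23.7% were. Without CON16L, 5 members were called higher in eWAT than in liver, where 64.2% of genes were, and 5 higher in liver than in muscle, where 15.2% were.

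Ratios within a library do not depend on the scaling of libraries, and they separated liver from the other tissues. They were chosen after the values were seen and are given as a description. Their absolute size depends on the annotated lengths of the genes, which are the same in every library. The level of B2m was 7.79 to 11.0 times the sum of H2-K1 and H2-D1 in the CON liver libraries, 1.79 to 2.09 times in eWAT and 1.64 to 1.71 times in muscle. In HSD libraries the same ratio was 5.79 to 9.05 in liver, 1.62 to 3.77 in eWAT, with HS3W highest, and 1.41 to 1.98 in muscle. H2-D1 was 0.306 to 0.452 of H2-K1 in CON liver, 1.71 to 1.82 in CON eWAT and 1.27 to 1.48 in CON muscle. Of these 2 chains H2-K1 had the higher level in liver and H2-D1 in the other tissues. H2-Q10, another class I heavy chain, was not in these ratios. It was 244 to 345 FPKM in the liver libraries, at most 5.31 in eWAT and at most 1.22 in muscle. The sum of Tap1, Tap2 and Tapbp was 3.22% to 4.63% of the 2 heavy chains in CON liver, 7.06% to 8.32% in CON eWAT and 11.4% to 14.2% in CON muscle. The 3 tissues did not overlap in this share, also with the HSD libraries at 2.56% to 3.29%, 7.57% to 9.42% and 10.7% to 15.04%.

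The immunoproteasome subunits stood in different proportion to the subunits they replace. Psmb9 was 0.146 to 0.185 of Psmb6 in CON eWAT, 0.0374 to 0.0839 in CON liver and 0.0126 to 0.0330 in CON muscle. Psmb8 was 0.152 to 0.200 of Psmb5 in CON eWAT, 0.0573 to 0.181 in CON liver and 0.00800 to 0.0323 in CON muscle. Psmb10 was 1.30 to 1.59 times Psmb7 in CON eWAT and 0.155 to 0.181 in CON muscle. In liver that ratio ran from 3.11 to 52.7 in CON and from 2.46 to 14.0 in HSD, with Psmb7 at 0.268 FPKM (7 fragments) in CON14L and at 6.90 FPKM in HS4L. Psmb5 and Psmb6 were also lowest in CON14L, the library with the largest mitochondrial share, at 11.4 and 21.8 FPKM against 49.6 and 93.5 in HS4L.

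**Figure D2:**
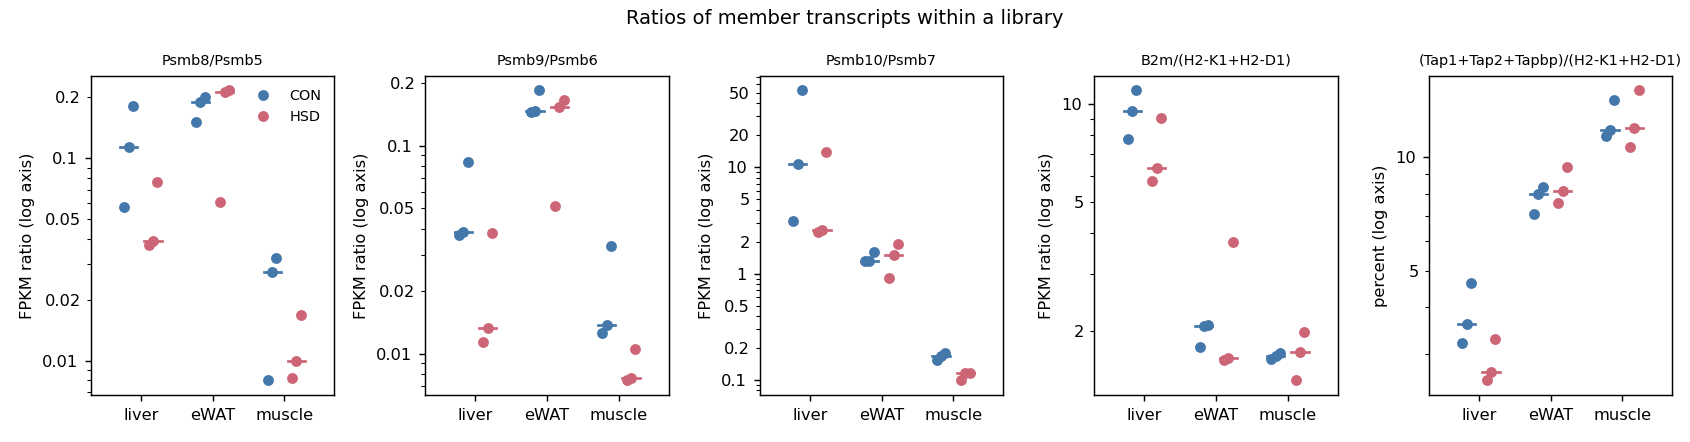
Ratio of FPKM values within each of the 18 libraries (log axes) by tissue and diet, with lines at group medians (n = 3). B2m per sum of H2-K1 and H2-D1 was highest in liver (5.79 to 11.0). Loading transcripts per the same sum ran from liver (2.56% to 4.63%) over eWAT to muscle (10.7% to 15.04%). In muscle Psmb10/Psmb7 was 0.155 to 0.181 in CON and 0.0995 to 0.116 in HSD.

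The main question of the study was what HSD changed in each tissue. No member was called between HSD and CON in any of the 3 tissues under the same rule (limma, adjusted p under 0.05 and a log2 fold change of 1 or more in size), with counts of 0 of 10 in liver, 0 of 10 in eWAT and 0 of 9 in muscle. Over all genes this rule called 0% in liver (0 of 10317), 0% in eWAT (0 of 13740) and 0.323% in muscle (35 of 10834). A rule that called no gene in liver and eWAT cannot tell whether the members changed there. The study itself, with DESeq2 and cutoffs of the same size, reported changed genes in each tissue. At an unadjusted p under 0.05 there was 1 member in liver (Psmb9), where 5.74% of genes passed, 0 in eWAT, where 16.7% passed, and 3 in muscle (Nlrc5, Psmb9 and Psmb10), where 16.3% passed. Limma's voom on the recovered fragments called 0 members in each tissue as well. Over all genes it called 0 of 10102 in liver, 0 of 13427 in eWAT and 66 of 10591 in muscle. It therefore cannot tell whether the members changed in liver and eWAT either. The differences that were measured had 1 direction in eWAT and muscle. All 10 members had a log2 fold change below 0 in eWAT, where 40.9% of genes did, and all 9 tested in muscle, where 60.8% did, against 6 of 10 in liver, where 37.3% did. The members had a median of -0.38 in eWAT, -0.40 in muscle and -0.13 in liver. All genes tested had medians of 0.08, -0.06 and 0.13. These fold changes are on the log2(FPKM + 0.5) scale, which understates changes of low genes.

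**Figure D3:**
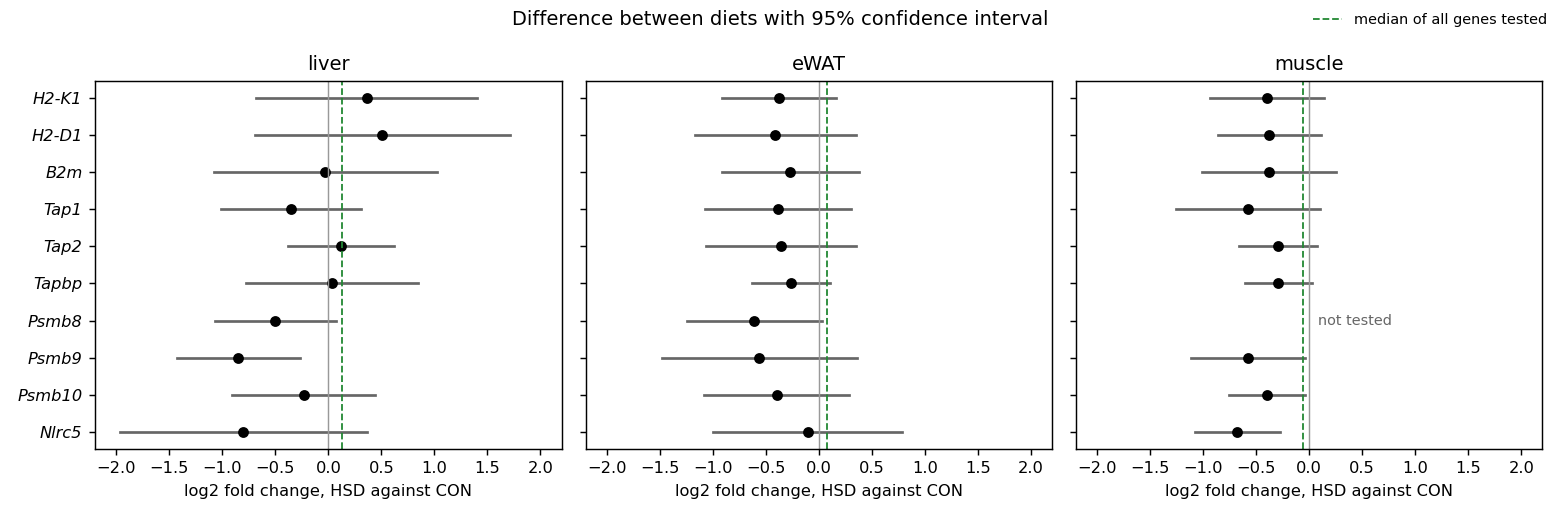
Log2 fold change of HSD against CON for each member by tissue, with 95% confidence intervals from limma (points, n = 3 against 3) and the median of all tested genes as a dashed line. All points lie below 0 in eWAT and muscle, and the intervals of Psmb9 in liver and of Nlrc5, Psmb9 and Psmb10 in muscle lie below 0 before adjustment for the number of genes.

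In liver Psmb9, which replaces Psmb6, was 1.83, 2.48 and 3.41 FPKM in CON14L, CON72L and CON16L and 0.970, 1.24 and 1.31 in HS2L, HS4L and HS5L. Each HSD library lay below each CON library, which held for 1 of 10 members and for 3.47% of genes. The log2 fold change was -0.85 ± 0.25 (SE), with a 95% interval of -1.43 to -0.27 (limma adjusted p = 0.76). Without CON16L it was -0.66, and Psmb9 was still the only member without overlap, beside 5.9% of genes. Psmb8 was 2.06, 3.72 and 3.26 FPKM in the same CON libraries and 2.10, 1.85 and 1.83 in the HSD libraries (log2 fold change -0.50, adjusted p = 0.76). These groups overlapped at CON14L. The third subunit, Psmb10, differed by -0.23 (95% interval -0.91 to 0.44).

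The heavy chains in liver had fold changes above 0 with wide intervals. H2-K1 was 207, 366 and 350 FPKM in CON14L, CON72L and CON16L and 408, 478 and 287 in HS2L, HS4L and HS5L, a log2 fold change of 0.36 (95% interval -0.68 to 1.40). H2-D1 was 63.2, 149 and 158 FPKM in CON and 191, 215 and 105 in HSD, with a log2 fold change of 0.51 (-0.70 to 1.72). Both groups overlapped, and the lowest library of both genes was CON14L. Nlrc5 was 7.29, 3.99 and 2.15 FPKM in CON and 1.898, 1.09 and 4.08 in HSD, with a log2 fold change of -0.80 (-1.97 to 0.36). The 6 liver libraries had the same order by Nlrc5 as by mitochondrial share, which was 60.8% in CON14L, 44.4% in HS5L, 37.8% in CON72L, 25.7% in CON16L, 16.3% in HS2L and 15.4% in HS4L. H2-D1 had exactly the reverse order.

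In the study's own 4 liver libraries, which leave out CON16L and HS5L, Nlrc5 differed by -1.60 (limma adjusted p = 0.059), H2-D1 by 1.06 (adjusted p = 0.24) and Psmb9 by -0.72 (adjusted p = 0.12). No member was called, where 0.351% of genes were. With the mitochondrially encoded genes left out and the values rescaled over all 6 libraries, 9 of 10 members had a fold change below 0 and the median of all genes moved from 0.13 to -0.20. The other members in liver had fold changes of -0.35 (Tap1), -0.03 (B2m), 0.03 (Tapbp) and 0.12 (Tap2), each with an interval that held 0. The part of the mitochondrial share in these values was not tested.

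In eWAT the groups were separate for 2 of 10 members, Tapbp and Psmb8, where 12.4% of genes had each HSD library below each CON library. Psmb8 was 4.17, 4.53 and 3.91 FPKM in CON16W, CON71W and CON72W and 2.95, 1.59 and 3.57 in HS2W, HS3W and HS5W, with a log2 fold change of -0.61 (95% interval -1.24 to 0.03, limma adjusted p = 0.31). Tapbp was 55.8, 59.8 and 59.6 FPKM in CON and 53.7, 39.5 and 54.3 in HSD (-0.26, adjusted p = 0.41). HS3W, the library with epididymal transcripts, was the lowest for 9 of 10 members, and B2m was lowest in HS2W. H2-K1 was 380, 393 and 346 FPKM in CON and 303, 217 and 357 in HSD, and H2-D1 was 672, 673 and 631 in CON and 604, 314 and 641 in HSD. In both heavy chains HS5W lay within the range of CON. Alb in the CON libraries, at most 167 FPKM, compares with 5154 or more in liver, and the part of the hepatocyte transcripts in these differences was not tested.

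Without HS3W the median of the eWAT members was -0.11, against -0.38 with it, and 9 of 10 were below 0, where 43.8% of genes were. H2-K1 then differed by -0.18, H2-D1 by -0.08, Tap2 by -0.03 and Psmb9 by -0.15, while B2m moved from -0.27 to -0.39 (limma adjusted p = 0.11). Nlrc5 turned from -0.10 to 0.30 (adjusted p = 0.29), at 8.71 and 8.40 FPKM in HS2W and HS5W against 5.57, 8.37 and 6.91 in CON. B2m, Tapbp and Psmb8 had no overlap between diets without HS3W, 3 of 10, where 20.5% of genes had none in this direction. In the study's eWAT libraries, which keep HS3W and leave out HS5W, the median was -0.55, no member was called, and 0% of genes were.

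In muscle Nlrc5 was 0.622, 0.994 and 0.726 FPKM in CON16M, CON71M and CON72M and 0.195, 0.290 and 0.418 in HS2M, HS3M and HS5M. The groups did not overlap, and the log2 fold change was -0.68 ± 0.18 (SE), with a 95% interval of -1.07 to -0.28 (limma unadjusted p = 0.0037, adjusted p = 0.11). Between 22 and 100 fragments stood behind these values. Over 16 alternatives the adjusted p ran from 0.051 (voom on the fragments) to 0.99 (all tissues in 1 fit), and with the replicate number as a block it was 0.082. Without CON71M the mean of Nlrc5 was under 0.5 FPKM and it was not tested, and the smallest adjusted p of the 8 members tested was 0.55. Psmb9 was 0.763, 1.80 and 0.806 FPKM in CON and 0.390, 0.568 and 0.705 in HSD, again without overlap (-0.58, limma adjusted p = 0.28). These 2 of 9 members compare with 15.6% of genes. Psmb10 was 5.44, 6.49 and 5.77 FPKM in CON and 3.52, 5.51 and 4.21 in HSD (-0.40, adjusted p = 0.26).

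The other muscle members overlapped between diets, with fold changes from -0.57 (Tap1) to -0.29 (Tapbp). Psmb8 had a mean under 0.5 FPKM and was not tested. It was 0.826, 0.574 and 0.238 FPKM in CON and 0.356, 0.319 and 0.286 in HSD. CON71M was the highest library for 9 of 10 members and HS2M the lowest for 8 of 10. The median of the muscle members was -0.21 without CON71M, where 8 were tested, and -0.26 without HS2M. The mouse of CON71M also gave CON71W, the highest eWAT library for 8 of 10 members, and it gave no liver library.

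Over the 6 libraries of a tissue the median Pearson r of the 45 pairs of members was 0.91 in eWAT, 0.84 in muscle and 0.31 in liver, as a description of libraries that share diet groups and depth. Without HS3W the median over the other 5 eWAT libraries was 0.55, without CON71M it was 0.73 in muscle, and without CON16L it was 0.45 in liver. In liver H2-K1 and H2-D1 had r = 0.99, and H2-D1 and Nlrc5 had r = -0.93. Among 8992 other genes, those most like the mean of the members over all 18 libraries, after each tissue was centred, included Iigp1 (r = 0.87), Scd1 (0.86), Fscn1 (0.86) and Ifi47 (0.84). Without HS3W the same r was 0.79, 0.83, 0.75 and 0.74. Within liver it was 0.63, 0.77, 0.79 and 0.19 in the same order, against 0.88 or more in eWAT and in muscle. Iigp1 and Ifi47 are interferon-inducible GTPases, and Scd1 is a fatty acid desaturase.

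The diet effect was not found to differ between tissues for any member. Interactions in limma over the 18 libraries gave 0 of 10 members at an adjusted p under 0.05 for eWAT minus liver, eWAT minus muscle and liver minus muscle, where 0.788%, 0% and 0.0612% of genes passed. The widest differences were for H2-D1, at -0.92 for eWAT minus liver (95% interval -2.10 to 0.26, adjusted p = 0.46) and 0.89 for liver minus muscle (-0.30 to 2.07, adjusted p = 0.73). Without CON16L and HS3W the count was again 0 for each pair of tissues, where 2.25%, 0.158% and 1.01% of genes passed. With the study's libraries 1 of 10 members passed for eWAT minus liver, H2-D1, where 23.8% of genes did.

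Other genes of the pathway were taken from lists. Of 13 other class I heavy chains and class I-like chains in the data, 10 were tested in muscle, 9 were below 0 and 1 passed the adjusted p. This was H2-T24, a class I gene of the T region, which fell from 2.28, 2.55 and 2.25 FPKM in CON16M, CON71M and CON72M to 1.14, 1.02 and 0.813 in HS2M, HS3M and HS5M. Its log2 fold change was -0.95 (limma adjusted p = 0.021), short of the size for a call, and 0.895% of genes passed the adjusted p alone in muscle. H2-T24 was -0.07 in eWAT and too low to test in liver. H2-Q7 was -0.86 in muscle (adjusted p = 0.23). In eWAT 10 of 11 tested chains were below 0 (8 of 10 without HS3W), from Cd1d1 at -0.77, which presents lipids, to H2-Q2 at 0.87, and in liver 6 of 10 were, from H2-Q1 at -0.64 to H2-T23 at 0.32. None of these passed.

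Of the 8 partners in peptide loading and trimming, all were above 0 in liver (median 0.72) and 6 were below 0 in muscle (-0.06), and none was called in any tissue. Their sum in liver was 155 FPKM in CON14L, 281 in HS5L, 477 in CON72L, 562 in CON16L, 797 in HS2L and 911 in HS4L. This was exactly the reverse of the order by mitochondrial share, whose part in these values was not tested. In eWAT 7 of 8 were above 0 (0.28) with all libraries, while 6 of 8 were below 0 (-0.09) without HS3W. Calr, a chaperone of the loading complex, was 128, 124 and 133 FPKM in CON16W, CON71W and CON72W and 106, 329 and 108 in HS2W, HS3W and HS5W, so that HS3W lay above CON and the other HSD libraries below it. Pdia3, the thiol oxidoreductase of the loading complex, was 0.95 in liver (adjusted p = 0.76), and Tapbpl, a tapasin-related peptide editor, was 0.78 in liver and -0.14 in eWAT. The constitutive subunits Psmb5, Psmb6 and Psmb7 were above 0 in muscle, at 0.19, 0.14 and 0.17, where the tested immunoproteasome subunits were below it. In muscle Psmb10 per Psmb7 was 0.155 to 0.181 in CON and 0.0995 to 0.116 in HSD, and Psmb9 per Psmb6 was 0.0126 to 0.0330 and 0.00744 to 0.0105. Neither ratio overlapped between diets, while Psmb8 per Psmb5 did, at 0.00800 to 0.0323 and 0.00820 to 0.0168, and an exact permutation test of 3 against 3 cannot give a p below 0.1. In eWAT all 3 constitutive subunits were below 0, at -0.36 (Psmb5), -0.09 (Psmb6) and -0.36 (Psmb7, adjusted p = 0.17). Without HS3W they were -0.61 (Psmb5, limma adjusted p = 0.042, short of the size for a call), -0.17 (Psmb6) and -0.35 (Psmb7). The activator subunits Psme1 and Psme2 were -0.49 and -0.35 in eWAT, -0.17 and 0.0026 in muscle and 0.03 and 0.23 in liver, and no gene of that list was called.

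Among 23 genes of interferon signalling and class I transactivation none was called in any tissue, and 15 of 19 tested were below 0 in muscle, 14 of 21 in eWAT and 6 of 19 in liver. Irf1, an activator of class I and Psmb9 transcription, was -0.07 in eWAT, -0.04 in muscle and 0.14 in liver. Rfx5, the DNA-binding partner of NLRC5, was 0.39, -0.18 and 0.05 in the same order. Leaving out HS3W gave 0.18 for Irf1 and 0.17 for Rfx5 in eWAT. Of the 21 genes of this list tested there, 12 were then below 0, where 43.8% of all genes were. The 11 interferon-stimulated genes outside the class I route were below 0 in 11 of 11 cases in eWAT and in muscle and in 10 of 11 in liver, with medians of -0.79, -0.58 and -0.92. Ifit3 fell in muscle, from 3.76, 3.77 and 4.82 FPKM in CON16M, CON71M and CON72M to 1.33, 2.03 and 2.36 in HS2M, HS3M and HS5M (-0.96, limma adjusted p = 0.045), and was -1.45 in eWAT (adjusted p = 0.12) and -1.16 in liver (adjusted p = 0.76). Ifit3 in muscle was short of the size for a call, and no other gene of that list passed with all libraries. Without HS3W 10 of 11 were below 0 in eWAT and 2 were called, Isg15 (-1.56, limma adjusted p = 0.029) and Ifit3 (-1.27, adjusted p = 0.039), where 1.21% of genes were called.

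**Figure D4:**
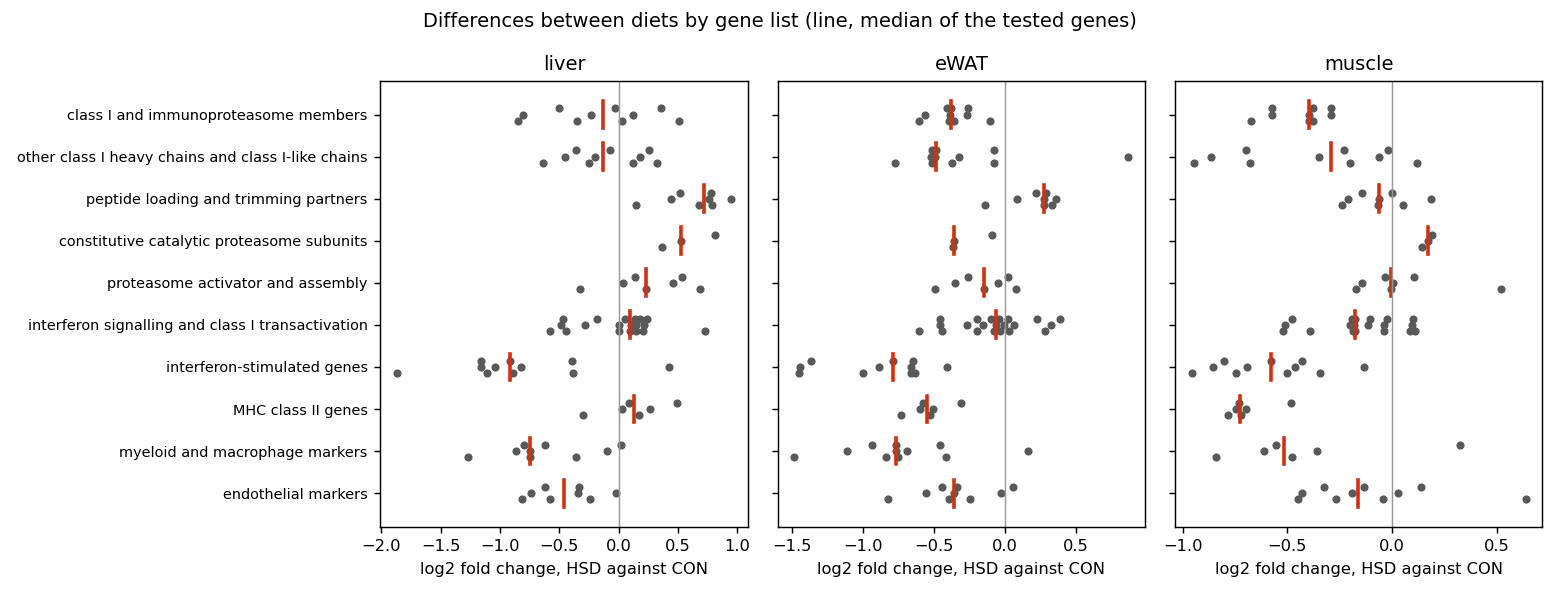
Log2 fold change of HSD against CON for the tested genes of each list by tissue, with a point per gene and a line at the median. Interferon-stimulated genes have medians of -0.92, -0.79 and -0.58 in liver, eWAT and muscle, the members -0.13, -0.38 and -0.40, and the loading partners 0.72, 0.28 (-0.09 without HS3W) and -0.06. The summed loading partners in liver had the reverse order of mitochondrial share.

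Summed markers of myeloid cells were also lower in HSD libraries, and their part in the values of the members was not tested. The summed level of 13 myeloid and macrophage markers was 43.0 to 55.2 FPKM in CON liver and 16.5 to 29.0 in HSD, 388 to 589 and 160 to 361 in eWAT, and 38.5 to 68.1 and 31.4 to 35.5 in muscle. The diets did not overlap in this sum in any tissue. Lyz2, the lysozyme of these cells, made up 73.8% to 75.8% of it in CON eWAT and 74.8% to 80.0% in CON muscle. The sum without Lyz2 overlapped in eWAT, at 102 to 143 FPKM in CON and 48.6 to 111 in HSD. It overlapped in muscle too, at 9.72 to 15.9 and 9.44 to 11.0, but not in liver, at 25.9 to 44.6 and 11.8 to 19.3. By gene, each HSD library lay below each CON library for 3 of 9 tested markers in liver, 5 of 11 in eWAT and 2 of 6 in muscle, where 3.47%, 12.4% and 15.6% of all genes did. Of the tested markers 8 of 9 were below 0 in liver, 10 of 11 in eWAT and 5 of 6 in muscle, and none was called with all libraries. Without HS3W Timd4, a receptor of resident macrophages, was called in eWAT (-1.15, limma adjusted p = 0.043). Clec4f and Marco were at 0 in all muscle libraries. The 6 MHC class II genes, which mark professional antigen-presenting cells, summed to 39.2 to 65.3 FPKM in CON muscle and 25.1 to 30.7 in HSD, with H2-Ab1 at -0.79 (adjusted p = 0.091). In eWAT the class II sum was 559 to 689 and 263 to 581, and in liver 15.3 to 44.8 and 29.9 to 44.4. The 16 T, NK and B cell markers summed to 1.48 to 2.13 FPKM in CON muscle and 0.499 to 1.79 in HSD, with 1 tested: Cd3e, a chain of the T cell receptor complex, fell from 0.925, 0.973 and 1.16 FPKM to 0.258, 0.245 and 0.415 (-0.92, limma adjusted p = 0.037). Cd3d and Cd3g, chains of the same complex, were not at a like level, with at most 0.0985 and 0.0493 FPKM in the muscle libraries. In the same list Nkg7 and Klrb1c were at 0 in CON muscle, and Cd8b1, Prf1 and Ncr1 in HSD muscle. The sums of these lymphocyte markers overlapped between diets in all 3 tissues, as did those of 10 endothelial markers, at 77.7 to 91.2 and 64.0 to 88.2 FPKM in muscle.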

How the data were processed

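Stranded paired-end libraries were made from TRIzol RNA after rRNA depletion. Per the authors, reads were trimmed (cutadapt), mapped on mm10 (hisat2) and turned into FPKM by cuffdiff, with an Ensembl annotation whose release is not given in the sources used here. The upstream software named for these data also includes HTSeq 0.9.1, and the submitters' notes name both mm9 and mm10. Which program gave the FPKM values was not tested. The FPKM values were used as deposited. With exon lengths of GENCODE M21 they gave whole fragments in all libraries for 18330 of 18822 genes above 0 (tolerance 0.01 fragment), all 10 members among them, and this gave the library totals.

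The members, gene lists and tests were chosen with earlier results of these data known. Diet was tested within a tissue and tissues over the 9 CON libraries by limma 3.58.1 (R 4.3.3) on log2(FPKM + 0.5), with eBayes and a trend, for genes with a mean of at least 0.5 FPKM in the fitted libraries, and adjusted by Benjamini-Hochberg over all genes. All tests were two-sided. Intervals are at 95%. A call needed an adjusted p under 0.05 together with a log2 fold change of 1 or more in size, and an interaction (18 libraries) the adjusted p alone. By the library names, each library of a group is from another mouse. The scripts were tested on simulated data. Figures were drawn with matplotlib 3.10.9.

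All members are named. Of other lists, named genes are those past the test, otherwise some of the 2 highest and 2 lowest, with Psmb5, Psmb6, Psmb7, Irf1 and Rfx5 always, and the 5 genes most like the mean of the members. A gene that this rule names is not reported here. Taken after their values were seen were Calr in eWAT, Psme2 in liver and muscle, Alb, Adipoq and Crisp1, and the markers at 0 in muscle. So were H2-Q10 in liver and eWAT, and Cd3d and Cd3g in muscle.

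CON and HSD libraries with the same replicate number are from different mice. Their deviations from the group means correlated at 0.383, 0.177 and 0.184 in muscle, and in liver and eWAT not all were above 0.1. Since the mice differ, the replicate number is no pairing, and the main fits used no block. As an alternative in each tissue, the block moved the called genes in muscle from 35 to 54 and left 0 in liver and eWAT. The tissue and interaction fits treated tissues of the same mouse as independent. With the mouse as a random block, the genes called moved from 8768 to 8760 for eWAT against liver. They moved from 6933 to 6953 for eWAT against muscle and from 6329 to 6314 for liver against muscle. The interactions moved from 103 to 106, 0 to 0 and 8 to 8 in the same order.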

Additional observations from a re-analysis of the deposited data

How the results depend on the processing

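The count of members called by diet was 0 in each tissue under every alternative run except limma's arrayWeights, which called 1 member in liver, Psmb9 (-1.02, adjusted p = 2.9e-05), and 8.98% of 10317 genes. Most alternatives called no gene at all in liver or eWAT. The others called at most 56 of 10317 genes in liver (1 fit of all tissues) and 220 of 13740 in eWAT (arrayWeights). In muscle the alternatives called from 7 of 16641 genes (no filter) to 97 of 10834 (adjusted p alone). The alternatives set pseudocounts to 0.1 or 1, dropped the filter or raised it to a mean of 1 FPKM, scaled by median ratios, left out mitochondrially encoded genes, used eBayes without trend, 1 fit of all tissues, adjusted p alone or the replicate block (0 members called in each tissue), left out each library, or kept the study's libraries. Chosen after seeing the data were voom and the interactions without CON16L and HS3W. The liver median of -0.13 was -0.50 without mitochondrially encoded genes and -0.43 with arrayWeights, and with 1 library left out it ran from -0.22 to -0.01. The eWAT median ran from -0.55 to -0.11 and the muscle median from -0.57 to -0.21 in the same way.

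Directions of uncalled members turned in liver without mitochondrially encoded genes (H2-K1 -0.014, Tap2 -0.21, Tapbp -0.33), with median-ratio scaling (Tapbp -0.069), with arrayWeights (Tapbp -0.16) and in the study's libraries (B2m 0.034), and in eWAT with arrayWeights (Nlrc5 0.22). With 1 library left out, B2m in liver ran from -0.22 to 0.14, Tap2 from -0.0093 to 0.21, Tapbp from -0.22 to 0.27 and Nlrc5 in eWAT from -0.32 to 0.30. The cause was not tested. For eWAT against liver, median-ratio scaling called 3 members in place of 5, and leaving out a CON library called 5 to 7. For liver against muscle leaving out a library called 5 to 7, and for eWAT against muscle 10 each time. The study's libraries gave 1 member in the interaction of eWAT minus liver, H2-D1, in place of 0. Psmb8, with as few as 9 fragments in a muscle library, was not tested in muscle, and B2m, with up to 39582 fragments, was not called by diet either.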
